A study of Mus musculus with 24 samples.

Results

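The genes described here encode receptors and ligands of the epidermal growth factor (EGF) receptor family. They are the receptors Egfr, Erbb2 and Erbb3 and the ligands Hbegf, Areg, Ereg, Epgn, Tgfa and Btc. These 9 genes were taken by symbol from the 54232 genes of each count table, and all 9 were among the 18978 genes with enough reads to be tested. Their transcripts were measured by RNA sequencing in dorsal wounds of 24 male mice of the strain C57BLKS/J with the genotype Lepr (db/db), a loss of the leptin receptor that serves as a model of type 2 diabetes. A 6 mm punch wound was made at 16 weeks of age and dressed with alginate. The dressing was a control bandage (Ctrl, 6 mice) or held medium conditioned by primary macrophages of the M0 (CM0, 4 mice), M1 (CM1, 4 mice), M2a (CMA, 5 mice) or M2c (CMC, 5 mice) type. It was renewed on day 3, and the wound was collected on day 10, when the mice were 17.5 weeks old. M0 is the usual name for unstimulated macrophages, M1 for an inflammatory type, and M2a and M2c for types linked to repair and to the end of inflammation. The sources used here give neither the agents used to obtain them nor whether the control bandage held unconditioned medium. All groups share the Lepr mutation and the wound, so the libraries hold neither a wound of a non-diabetic mouse nor intact skin.

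The EGF receptor is a tyrosine kinase at the surface of keratinocytes and many other cells. Its ligands are made as membrane proteins, are cut loose by metalloproteases such as Adam17, and bring receptors together in pairs that signal through the ERK and PI3 kinase pathways. Erbb2 binds no known ligand and acts as a partner, and Erbb3 has a weak kinase, binds neuregulins and passes signals on through its partner. In skin the pathway is known for driving keratinocytes to divide and to move over a wound bed, and Hbegf, Areg, Tgfa, Ereg and Epgn are made by keratinocytes themselves.

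Library totals ran from 7267879 to 11985292 counts. The markers of the tissue were present in every group, with the 7 fibroblast markers summing to between 64790 and 124700 CPM and the 9 basal keratinocyte markers to between 4894 and 9708 CPM. CPM are counts per 1000000 reads of a library whose size was scaled by TMM, a trimmed mean of log ratios between libraries. The skin compartments were not even between wounds. The 6 tested of 8 hair follicle markers summed to 3.88 CPM in the lowest library, Ctrl 6, and to 7946 CPM in the highest, Ctrl 3. Ctrl 6 also had the lowest scores of the basal and differentiated keratinocyte lists (mean log2 CPM 8.28 and 7.68), and CMA 3 the highest of the differentiated and activated lists (9.80 and 7.94). In such bulk tissue, fewer cells of a type and less RNA per cell cannot be told apart.

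Egfr was the steadiest of the 9 genes. Egfr (ENSMUSG00000020122, GRCm38 chromosome 11, 16752203 to 16918158, plus strand) had between 1722 and 3160 counts per library. The 6 control wounds ran from 213 to 271 CPM with a median of 249. The CM0 wounds had 272, 253, 260 and 262 CPM, and the CM1 wounds 247, 241, 242 and 279 CPM. All CM0 values lay above the control median but inside or just above the control range. Egfr had 212, 275, 264, 259 and 208 CPM under CMA and 243, 286, 208, 297 and 273 CPM under CMC. From the lowest to the highest of the 24 wounds the difference in CPM was 1.43-fold. Only 21% of the 18978 tested genes had a smaller standard deviation (SD) of log2 CPM. The antisense gene Egfros lies over Egfr on the other strand without shared exons.

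Erbb2, the ligandless partner, and Erbb3, the neuregulin receptor, varied more. Erbb2 (ENSMUSG00000062312, chromosome 11, 98412470 to 98437716, plus strand) ran from 51.0 to 118 CPM in the control wounds, with a median of 97.6. It had 74.2, 95.1, 101 and 80.2 CPM under CM0 and 87.8, 82.2, 101 and 72.7 CPM under CM1. The CMA wounds had 85.3, 132, 136, 92.3 and 96.5 CPM and the CMC wounds 74.0, 65.6, 75.4, 91.3 and 83.5 CPM. The lowest of all was Ctrl 6 and the highest CMA 3, and none of the 5 CMC wounds reached the control median. The groups overlapped throughout. Erbb2 shares exon sequence on the other strand with Mien1, which had 1514 counts in all libraries together against 20427 for Erbb2. The library kit does not mark strand, so reads of the shared stretch cannot be told apart by strand.

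Erbb3 (ENSMUSG00000018166, chromosome 10, 128567523 to 128589652, minus strand) ran from 44.8 to 119 CPM in the control wounds, with a median of 112. Its values were 83.4, 114, 110 and 88.7 CPM under CM0 and 103, 78.8, 127 and 59.4 CPM under CM1. They were 108, 133, 136, 97.4 and 121 CPM under CMA and 84.5, 68.4, 91.7, 98.3 and 78.9 CPM under CMC. Ctrl 6 was again lowest and CMA 3 again highest, and again 0 of 5 CMC wounds lay above the control median. The other 5 control wounds lay within 110 to 119 CPM, so 1 wound set most of the spread of the control group.

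Read per length of transcript, the 3 receptors stood well above the ligands. On the TPM scale (counts divided by the union of exon lengths, as a share of 1000000 per library, without TMM), Egfr had a level of 44.7 ± 9.31 (mean ± SD, n = 24), Erbb2 34.96 ± 9.67 and Erbb3 33.1 ± 9.16. Egfr ran from 31.4 to 60.66 TPM, a wider range than in CPM, so its spread depends on the scale. Its mean was 47.58 TPM in Ctrl, 48.26 under CM0, 45.69 under CM1, 38.59 under CMA and 43.57 under CMC. In CPM the means of Ctrl and CMA were 244.9 and 243.5. The groups were not tested on the TPM scale. Egfr lay above Erbb2 in 21 of 24 wounds, Erbb2 above Erbb3 in 16, and Erbb3 above Tgfa, the next gene, in all 24. The ligands followed with TPM levels of 5.94 ± 2.28 for Tgfa, 5.93 ± 2.167 for Hbegf, 5.45 ± 3.29 for Ereg, 4.5 ± 1.54 for Btc, 4.19 ± 2.78 for Areg and 3.45 ± 1.93 for Epgn. Each ligand differed from its neighbour in this order by less than the SD between wounds. With the longest transcript as the length Hbegf stood at 8.74 TPM and Tgfa at 7.48, so the order of these ligands depends on the length used. The leading ligand per length was Tgfa in 8 wounds, Hbegf in 7, Ereg and Btc in 3 each, Areg in 2 and Epgn in 1.

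**Figure D1:**
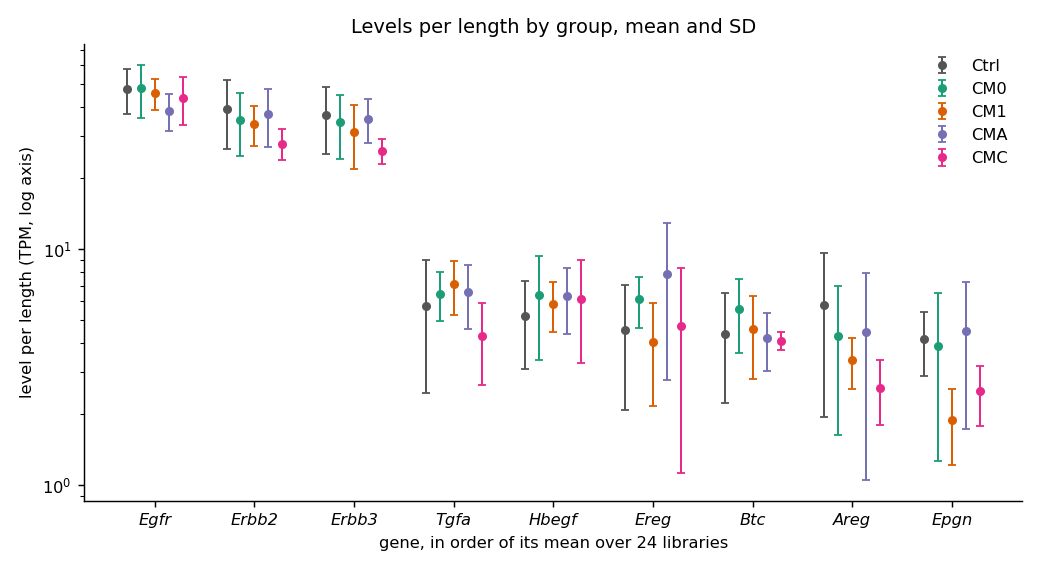
Level per length of the 9 genes in TPM (log axis), with points for the mean and bars for the SD of each of the 5 groups. Over all 24 wounds the receptors Egfr, Erbb2 and Erbb3 have means from 33.1 to 44.7 TPM and the 6 ligands from 3.45 to 5.94 TPM.

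The balance of the receptors shifted between single wounds. The ratio of Egfr to Erbb2 per length had a median of 1.25 and ran from 0.896 in CMA 3 to 2.34 in Ctrl 6. For Egfr over Erbb3 it ran from 0.911 in CMA 5 to 3.08 in Ctrl 6, with a median of 1.27. The ratio of Erbb3 to Erbb2 kept a narrower range of 0.707 to 1.096.

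Tgfa and Hbegf, the ligands with the highest level per length, are both keratinocyte products, and Hbegf also binds heparin-like chains of the matrix. Hbegf (ENSMUSG00000024486, chromosome 18, 36504927 to 36515805, minus strand) ran from 7.26 to 19.2 CPM in the control wounds, with a median of 10.8. It had 20.8, 8.08, 11.9 and 19.4 CPM under CM0 and 19.03, 7.73, 14.1 and 16.1 CPM under CM1. The values were 15.1, 17.4, 19.4, 22.6 and 10.6 CPM under CMA and 23.7, 13.1, 26.6, 10.6 and 7.34 CPM under CMC. Every group thus held wounds on both sides of the control median, and the fold between the lowest and the highest of all wounds, Ctrl 2 and CMC 3, was 3.67.

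Tgfa (ENSMUSG00000029999, chromosome 6, 86195223 to 86275719, plus strand) ran from 8.51 to 28.7 CPM in the control wounds, with a median of 13.8. It had 18.5, 16.7, 22.7 and 23.6 CPM under CM0, 30.4, 15.9, 27.7 and 17.1 CPM under CM1, and 19.9, 25.8, 29.8, 26.1 and 16.2 CPM under CMA. All of these values lay above the control median, and all but those of CM1 1 and CMA 3 within the control range. The CMC wounds had 24.2, 8.82, 21.4, 14.7 and 7.77 CPM, so this group held both high and low wounds. Tgfa shares exon sequence with Gm43917 on the other strand, which had 304 counts in all libraries together against 4349 for Tgfa.

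Epgn, Ereg, Areg and Btc lie in a row on chromosome 5, within 375.5 kb. Epgn (ENSMUSG00000035020, 91027464 to 91035215), Ereg (ENSMUSG00000029377, 91074622 to 91093646) and Areg (ENSMUSG00000029378, 91139599 to 91148432) are on the plus strand, and Btc (ENSMUSG00000082361, 91357261 to 91402994) is on the minus strand. The gaps between them are 39406 bases from Epgn to Ereg, 45952 from Ereg to Areg and 208828 from Areg to Btc. The promoters of Areg and Epgn are shown because these neighbours moved together between wounds, as given further on. The sequences are from RefSeq (GRCm38.p6) and end at the base before the gene start given above, on the plus strand of chr5:91139349-91139598 for Areg and of chr5:91027267-91027463 for Epgn. Capitals mark matches, sought on both strands, to TGACGTCA, the cyclic AMP response element, and to TATAAA, the TATA box.
Areg: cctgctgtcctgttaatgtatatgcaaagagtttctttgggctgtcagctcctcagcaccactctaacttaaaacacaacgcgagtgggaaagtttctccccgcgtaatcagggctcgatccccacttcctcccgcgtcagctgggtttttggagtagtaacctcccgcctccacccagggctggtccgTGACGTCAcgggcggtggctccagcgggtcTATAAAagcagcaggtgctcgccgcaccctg
Epgn: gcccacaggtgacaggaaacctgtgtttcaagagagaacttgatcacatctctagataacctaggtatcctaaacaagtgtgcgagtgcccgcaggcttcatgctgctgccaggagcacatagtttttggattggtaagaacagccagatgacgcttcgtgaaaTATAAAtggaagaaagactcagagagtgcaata
In the Areg promoter the response element starts 61 bases and the TATA box 31 bases before the gene start. In Epgn the TATA match starts 33 bases before the gene start given above, and 86 bases before the RefSeq start, which lies 53 bases further in, so that the shown stretch has 197 of the 250 bases of the RefSeq window. Of 32851 mouse promoter windows of 250 bases, 1.55% hold TGACGTCA and 12.4% hold TATAAA. A further motif, TGANTCA of the AP-1 factors, is in 6.75% of the windows and in none of those of the 6 members listed, which are Egfr, Erbb2, Areg, Epgn, Tgfa and Btc. The windows of Btc, Tgfa, Egfr and Erbb2 held none of the 3 motifs. A match is a stretch of letters and not a measured binding site.

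Areg and Epgn had the fewest reads, with 7 to 55 counts of Areg and 8 to 69 counts of Epgn per library. Areg, a ligand that is also made by immune cells, ran from 0.819 to 5.73 CPM in the control wounds, with a median of 3.40. It had 3.66, 0.909, 2.80 and 2.36 CPM under CM0, 2.73, 1.23, 2.49 and 1.79 CPM under CM1, 1.47, 2.06, 5.97, 3.01 and 1.88 CPM under CMA, and 2.36, 1.49, 2.21, 1.74 and 0.777 CPM under CMC. None of the CM1 or CMC wounds lay above the control median, while 1 CMC wound lay below every control.

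Epgn, which encodes epigen, a ligand of low affinity, ran from 1.64 to 4.24 CPM in the control wounds, with a median of 3.78. It had 4.12, 0.808, 4.98 and 3.24 CPM under CM0 and 2.73, 0.986, 1.45 and 1.68 CPM under CM1. Under CMA it had 1.97, 3.63, 7.77, 3.97 and 4.41 CPM and under CMC 2.58, 2.23, 3.14, 1.39 and 2.68 CPM. All CM1 and CMC wounds lay under the control median, and 2 CM1 wounds lay below every control.

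Ereg, which encodes epiregulin, a ligand of both Egfr and Erbb4, ran from 5.48 to 16.2 CPM in the control wounds, with a median of 7.53. The CM0 wounds were close together at 10.3, 13.02, 12.97 and 12.3 CPM, and the CM1 wounds had 7.41, 5.59, 14.5 and 5.49 CPM. The CMA wounds had 17.8, 12.6, 32.5, 14.7 and 9.48 CPM, all above the control median, and 2 of the 5 lay above every control. The CMC wounds were split, with 16.9 and 19.1 CPM in CMC 1 and CMC 2 and 6.75, 4.18 and 4.49 CPM in the other wounds. Exons of Gm19610, which had 82 counts in all libraries together against 2519 for Ereg, overlap Ereg on the other strand.

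Btc, which encodes betacellulin and is tied to the hair follicle and epidermis in skin, ran from 3.71 to 11.9 CPM in the control wounds, with a median of 10.4. It had 12.1, 15.1, 10.5 and 9.64 CPM under CM0 and 10.0, 9.54, 14.8 and 5.60 CPM under CM1. The CMA wounds had 10.7, 17.7, 5.18, 11.2 and 10.2 CPM, and the CMC wounds 12.8, 9.35, 9.31, 9.40 and 9.07 CPM. Ctrl 6 was the lowest wound for Btc, as for Erbb2 and Erbb3.

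As a set, the ligands varied more between wounds than the receptors. The share of tested genes with a smaller SD of log2 CPM over the 24 wounds was 84.5% for Btc, 88.1% for Hbegf, 89.1% for Tgfa, 95.5% for Epgn, 95.8% for Areg and 96.4% for Ereg. It was 57.2% for Erbb2 and 68.7% for Erbb3. The ligands also had fewer reads, 564 to 4349 over all libraries against 20427 to 57249 for the receptors. An edgeR fit estimates the variation between wounds of a group apart from counting error. As a coefficient of variation this estimate was 0.117 to 0.233 for the receptors and 0.325 to 0.463 for the ligands. The part of counting error in the SD over the 24 wounds was not tested.

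**Figure D2:**
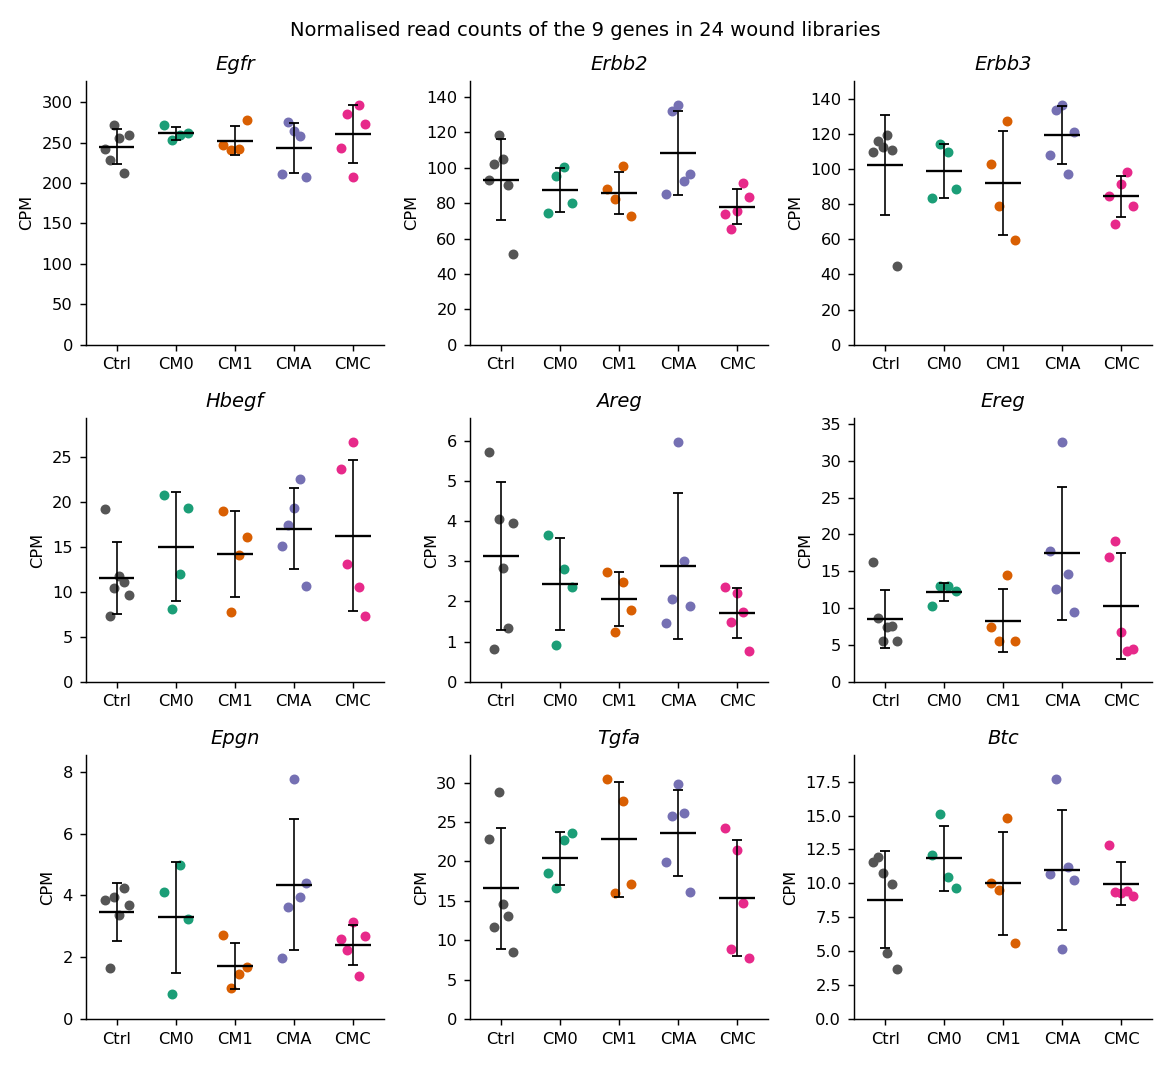
CPM of each of the 9 genes in each wound, by group, with a line for the group mean and bars for the SD; each panel has its own linear axis from 0. Egfr stays within 208 to 297 CPM, while Ereg reaches 32.5 CPM in CMA 3 against a control range of 5.48 to 16.2 CPM.

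To ask whether a macrophage medium changed the receptors or ligands, each medium was compared with the control bandage. Differences are log2 fold changes from an edgeR quasi-likelihood test fitted on all tested genes, with p-values adjusted by the Benjamini-Hochberg method over those genes and a threshold of 0.05. The 4 comparisons share the control wounds. For each of the 9 genes the range of every medium overlapped that of the controls.

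Under CM0, 0 of the 9 genes passed the threshold, beside 0% of all tested genes, and 0 of 9 had an unadjusted p under 0.05, beside 4.92%. The 9 genes had a median log2 fold change of 0.10, against -0.01 for all tested genes, with 5 higher and 4 lower means. Ereg had the largest difference, 0.51 (SE 0.43, 95% interval -0.38 to 1.41, edgeR adjusted p = 0.947), followed by Btc with 0.43 (SE 0.31, interval -0.21 to 1.07). Areg had -0.37 (SE 0.46) and Epgn -0.08 (SE 0.38). Without 1 library the values of Ereg ran from 0.40 to 0.81, those of Btc from 0.26 to 0.53 and those of Areg from -0.65 to -0.11.

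Under CM1, 0 of 9 passed, beside 0% of all genes, and 1 of 9, Epgn, had an unadjusted p under 0.05, beside 7.04%. Epgn stood at 1.71 ± 0.739 CPM (SD, n = 4) against 3.46 ± 0.936 in the controls (n = 6), a log2 difference of -1.04 (SE 0.41, interval -1.88 to -0.19, edgeR adjusted p = 0.695). Areg differed by -0.63 (SE 0.47), and Tgfa, on the other side, by 0.46 (SE 0.32). Without 1 library these ran from -1.35 to -0.83 for Epgn, -0.82 to -0.37 for Areg and 0.28 to 0.68 for Tgfa. The median of the 9 genes was -0.05 against -0.01 for all genes, with 4 higher and 5 lower means.

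Under CMA, 7 of the 9 genes had a higher mean than the controls after TMM scaling, and the median difference was 0.32 against -0.01 for all genes. On the TPM scale Erbb2, Erbb3 and Btc were instead lower in mean, with 37.45, 35.73 and 4.19 TPM against 39.22, 36.87 and 4.364 in Ctrl. Hbegf, Ereg, Epgn and Tgfa were higher on both scales, and Egfr and Areg lower on both. None of the 9 passed the threshold, beside 0% of all genes, and 1 of 9, Ereg, had an unadjusted p under 0.05, beside 6.61%. Ereg stood at 17.4 ± 8.98 CPM (n = 5) against 8.51 ± 3.99 (n = 6), a log2 difference of 1.03 (SE 0.40, interval 0.20 to 1.87, edgeR adjusted p = 0.725). Hbegf differed by 0.56 (SE 0.33), Tgfa by 0.50 (SE 0.31), Epgn by 0.33 (SE 0.35) and Btc by 0.32 (SE 0.30). Much of the Ereg mean came from CMA 3, and over fits that each leave out 1 wound its difference ran from 0.68 without CMA 3 to 1.32 without Ctrl 1. In the same fits Epgn ran from 0.02 to 0.51 and Btc from 0.08 to 0.50. CMA 3 was also the wound with the highest differentiated and activated keratinocyte scores, whose part in the difference was not tested.

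Under CMC, 0 of 9 passed, beside 0% of all genes, and 0 of 9 had an unadjusted p under 0.05, beside 8.55%. The largest difference was that of Areg, at 1.71 ± 0.630 CPM (n = 5) against 3.12 ± 1.84 (n = 6), a log2 difference of -0.90 (SE 0.45, interval -1.83 to 0.03, edgeR adjusted p = 0.601). Erbb2 and Erbb3 differed by -0.26 (SE 0.17) and -0.28 (SE 0.20), and Hbegf by 0.49 (SE 0.33). Leaving out 1 library, these differences ran from -0.39 to -0.18 for Erbb2 and -0.44 to -0.21 for Erbb3, both lowest without Ctrl 6, and from 0.24 (without CMC 3) to 0.69 (without Ctrl 1) for Hbegf. Without Ctrl 3, Ctrl 4 and CM1 3 together they were -0.11 for Erbb2 and -0.18 for Erbb3. These wounds had the highest scores of all for the hair follicle (Ctrl 3), skeletal muscle (Ctrl 4) and neutrophil (CM1 3) lists. CM1 3 is in neither group compared here and enters only through the shared fit. The median of the 9 genes was -0.11 against -0.01 for all genes, with 4 higher and 5 lower means.

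For the mean of the 4 media with equal weight, 0 of 9 passed, beside 0% of all genes, and 0 of 9 had an unadjusted p under 0.05, beside 9.42%. Hbegf was higher in mean under each of the media, and its mean difference was 0.43 (SE 0.26, interval -0.12 to 0.98, edgeR adjusted p = 0.606). Areg was lower in mean under each of them, with a mean difference of -0.51 (SE 0.33, interval -1.19 to 0.17, edgeR adjusted p = 0.6253), while limma gave the opposite sign, near 0, under CM0 and CMA and -0.20 for the mean. Leaving out 1 library moved the edgeR value of Areg to between -0.70 (without Ctrl 2) and -0.25 (without Ctrl 1), and that of Hbegf to between 0.33 and 0.63. In the test for any difference among the 5 groups 0 of 9 passed, beside 0% of all genes. Epgn alone of the 9 had an unadjusted p under 0.05 there, 0.0300 (edgeR adjusted p = 0.929), beside 4.65% of all genes.

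The intervals say how large a change could have been missed. For Egfr the 95% intervals of the 4 media together reached from -0.20 to 0.30 on the log2 scale, so changes beyond 1.23-fold lay outside them. All these bounds hold for levels scaled by TMM. On the TPM scale, which was not tested, the Egfr mean was 38.59 under CMA against 47.58 in Ctrl. For Erbb2 the farthest bound was 1.52-fold and for Erbb3 1.62-fold. The ligands were far less precise. The farthest bound was 2.10-fold for Btc, 2.21-fold for Tgfa, 2.36-fold for Hbegf, 3.55-fold for Areg, 3.65-fold for Ereg and 3.68-fold for Epgn. For Hbegf and Areg a 2-fold change lay inside the interval under each of the 4 media.

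**Figure D3:**
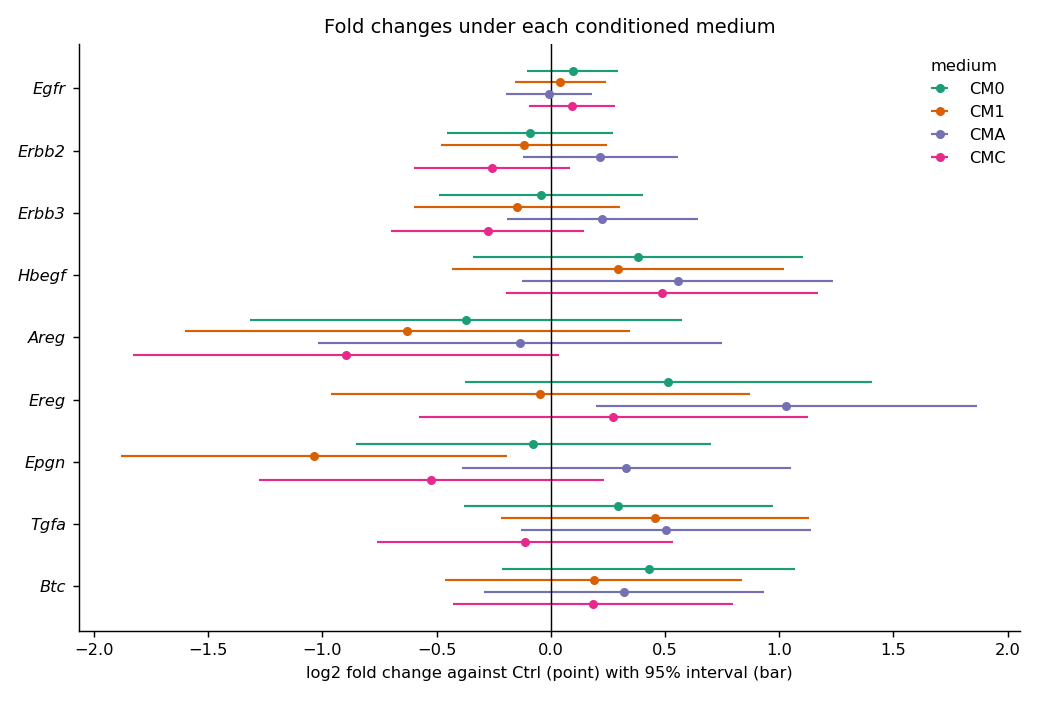
Log2 fold change of each gene under each medium against the control bandage with its 95% interval, from the edgeR model over 24 libraries. The intervals of Egfr stay within -0.20 to 0.30, and of the 36 intervals only those of Epgn under CM1 and Ereg under CMA do not cross 0; neither passes adjustment.

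The media were also compared with each other, in 54 tests of the 9 genes over 6 pairs of media. None passed the threshold, the smallest adjusted p being 0.795, beside 0% of all tested genes in each pair, and 6 had an unadjusted p under 0.05. Of these, 3 lay between CMC and CMA, where 6.16% of all genes had such a p. There Epgn differed by -0.85 (SE 0.37), Erbb3 by -0.50 (SE 0.21) and Erbb2 by -0.47 (SE 0.17, interval -0.83 to -0.12, edgeR adjusted p = 0.795). Between CMA and CM1, with 4% of all genes, Epgn differed by 1.37 (SE 0.42, interval 0.50 to 2.23, unadjusted p = 0.00333, edgeR adjusted p = 0.995) and Ereg by 1.08 (SE 0.45). Between CM1 and CM0, with 2.22% of all genes, Epgn differed by -0.96 (SE 0.44). In the other pairs 0 of 9 had such a p, beside 3.14% for CMA against CM0, 3.72% for CMC against CM0 and 2.71% for CMC against CM1.

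While the groups could not be told apart, several of the genes varied together from wound to wound. Over the 36 pairs of genes, Pearson's r of log2 CPM passed a permutation test (100000 resamples, two-sided, adjusted over the 36 pairs) in 7 pairs, and Spearman's rho in 4. Erbb2 and Erbb3 were the closest pair, with r = 0.901 and rho = 0.925 (both with p = 1e-05, the smallest the resamples can give, and adjusted p = 0.00036). The relation stayed at r = 0.843 without CMA 3 and Ctrl 6, the wounds farthest from the median of Erbb2, and at 0.880 with the group means removed. Egfr did not follow them, with r = -0.289 for Erbb3 (permutation p = 0.172, adjusted p = 0.342) and r = 2.35e-05 for Erbb2 (adjusted p = 1.0).

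Among the ligands, Areg and Epgn went together (r = 0.670 with permutation p = 0.00033 and adjusted p = 0.00594; rho = 0.634 with p = 0.00104 and adjusted p = 0.0162). Without CMA 3 and CMC 5 their r was 0.658, and with group means removed 0.687. Ereg, which lies between them on chromosome 5, had r = 0.320 with Areg (permutation p = 0.127, adjusted p = 0.305) and 0.283 with Epgn (permutation p = 0.181, adjusted p = 0.342). Btc, the far neighbour, had r = -0.295 with Areg (permutation p = 0.161) and -0.276 with Epgn (permutation p = 0.19), each with an adjusted p = 0.342. The rho of these pairs of Btc were -0.0443 and -0.0974. Ereg with Btc had r = 0.251 (permutation p = 0.235, adjusted p = 0.395) and rho = 0.450 (adjusted p = 0.145). Without CMA 3 and CMC 4 their r was 0.550 (adjusted p = 0.0397). Among the 4 neighbours only Areg with Epgn was thus called over all 24 wounds, and differences between the relations were not tested.

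Hbegf and Tgfa formed the other pair of ligands (r = 0.641 with permutation p = 0.0009 and adjusted p = 0.0108; rho = 0.633 with p = 0.00135 and adjusted p = 0.0162). Without CMC 3 and Ctrl 2 their r was 0.631, and with group means removed 0.676. These 3 pairs, Erbb2 with Erbb3, Areg with Epgn, and Hbegf with Tgfa, kept an adjusted p under 0.05 when any 1 of the 24 libraries was left out. The other called pairs did not. Hbegf with Areg (r = 0.575, permutation p = 0.00328, adjusted p = 0.0295) lost the call without Ctrl 2 and without CMC 5, each left out alone, with an adjusted p of up to 0.0696. Tgfa with Areg (r = 0.544), with Erbb2 (r = 0.533) and with Erbb3 (r = 0.547), with permutation p of 0.00615, 0.00654 and 0.00524 and each with an adjusted p = 0.0336, lost it without any of 7, 6 and 7 single libraries, with adjusted p up to 0.127, 0.214 and 0.214. Spearman's rho was 0.508, 0.580, 0.370 and 0.377 in these 4 pairs, with an adjusted p of 0.0901, 0.0337, 0.226 and 0.226.

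**Figure D4:**
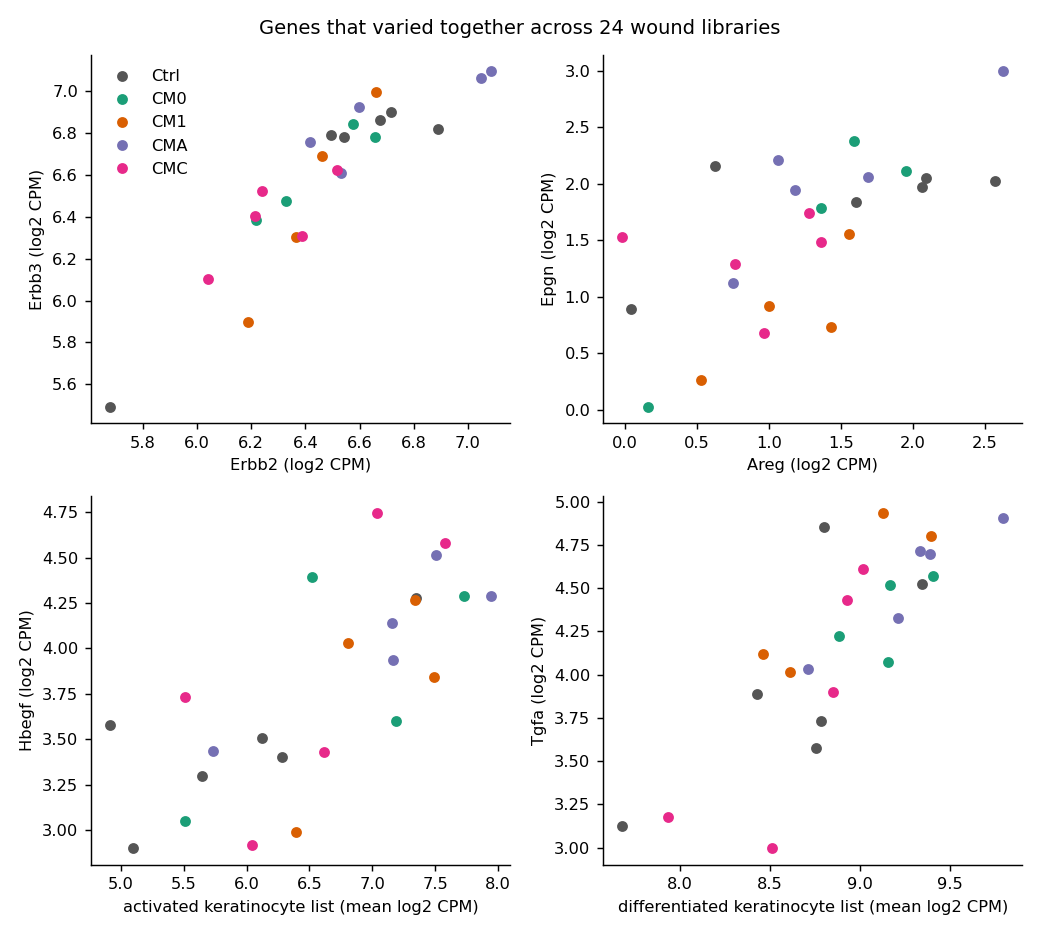
The 24 wounds as points, coloured by group, in log2 CPM, for Erbb3 against Erbb2, Epgn against Areg, Hbegf against the activated keratinocyte list and Tgfa against the differentiated keratinocyte list. Erbb2 and Erbb3 follow each other at r = 0.901, and Tgfa follows the mean of the differentiated keratinocyte markers at r = 0.817.

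To see which part of the tissue each gene went with, it was related to the mean log2 CPM of 10 lists of cell type markers, 90 relations in all. Of these 16 passed with Pearson's r after adjustment over the 90, 8 with Spearman's rho, 6 without the 2 wounds farthest from the median of the list, and 11 with group means removed. Such a relation between levels in the same libraries says nothing on which cells made a transcript. It is given below first for relations that held under all these measures and without any 1 library.

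Tgfa followed both the differentiated keratinocyte list (Krt1, Krt10, Lor, Flg, Ivl, Krtdap, Sbsn, Dsg1a and Dsc1, the genes of the upper epidermis) and the activated list (Krt6a, Krt16 and 9 other genes of wound edge epidermis). With the first list it had r = 0.817 (permutation p = 1e-05, the smallest possible, adjusted p = 0.0009) and rho = 0.783 (adjusted p = 0.0009), and r = 0.717 without CMC 2 and Ctrl 6. With the second it had r = 0.763 (permutation p = 4e-05, adjusted p = 0.0015) and rho = 0.8 (adjusted p = 0.0009), and r = 0.783 without Ctrl 2 and Ctrl 4. The lists were themselves related (r = 0.739). All 9 and all 11 markers of these lists were tested.

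The summed level of the differentiated list ran from 4218 to 13230 CPM in Ctrl, 8240 to 12960 in CM0, 6515 to 11060 in CM1, 7026 to 17130 in CMA and 3948 to 9362 in CMC. That of the activated list ran from 893.6 to 6329 CPM in Ctrl, 1128 to 6996 in CM0, 2406 to 6102 in CM1, 1821 to 6531 in CMA and 1810 to 7022 in CMC. The groups overlapped in both lists. The part of these lists in the group means of Tgfa was not tested.

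Hbegf followed the activated keratinocyte list, with r = 0.732 (permutation p = 5e-05, adjusted p = 0.0015) and rho = 0.736 (adjusted p = 0.0018). It also followed the neutrophil list (S100a8, S100a9, Retnlg, Csf3r, Cxcr2 and Il1b), with r = 0.649 (permutation p = 0.00059, adjusted p = 0.00531) and rho = 0.630 (adjusted p = 0.0195). These lists were related as well (r = 0.732). The median sum of the activated list was higher under each medium than in Ctrl, as was the mean of Hbegf. The part of the lists in the group means of Hbegf was not tested. All 6 neutrophil markers were tested, and their summed level ran from 35.7 to 333.2 CPM in Ctrl, 27.1 to 516.3 in CM0, 161.2 to 796 in CM1, 51.7 to 474.1 in CMA and 73.9 to 390.2 in CMC. Unlike Tgfa, Hbegf had no called relation with the differentiated list (r = 0.477, permutation p = 0.0181, adjusted p = 0.086); the difference between the genes' relations was not tested.

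Erbb3 ran against the fibroblast list (Col1a1, Col1a2, Col3a1, Pdgfra, Lum, Dcn and Postn), with r = -0.673 (permutation p = 0.00037, adjusted p = 0.00495) and rho = -0.694 (adjusted p = 0.00698), and r = -0.617 without CM1 4 and Ctrl 3. All 7 markers were tested. Their sum ran from 64790 to 94290 CPM in Ctrl, 69510 to 92990 in CM0, 68840 to 124700 in CM1, 68830 to 99980 in CMA and 78330 to 87330 in CMC. Erbb2 had a like relation (r = -0.596 with permutation p = 0.00244 and adjusted p = 0.0169; rho = -0.658), with an adjusted p = 0.0796 without the same pair of wounds. Egfr had no called relation with any list, the largest being r = 0.437 with the fibroblast list (permutation p = 0.0329, adjusted p = 0.123).

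The other called relations lost their call when the 2 farthest wounds were left out, except that of Ereg with the differentiated list. Those of Erbb2 (r = 0.664, permutation p = 0.00043, adjusted p = 0.00495) and Erbb3 (r = 0.727, permutation p = 0.0001, adjusted p = 0.0018) with the differentiated list dropped to 0.402 (adjusted p = 0.241) and 0.499 (adjusted p = 0.122) without CMC 2 and Ctrl 6, and their rho were 0.416 and 0.480. For Erbb2 leaving out Ctrl 6 alone ended the call, with an adjusted p = 0.0637. Both genes also ran against the macrophage list (r = -0.651 with permutation p = 0.00058 for Erbb2 and -0.667 with p = 0.00044 for Erbb3; rho = -0.510 and -0.580), with r of -0.449 and -0.475 and adjusted p = 0.15 and 0.135 without the same pair. Btc followed the basal keratinocyte list (r = 0.715, permutation p = 9e-05, adjusted p = 0.0018; rho = 0.509), with r = 0.535 and an adjusted p = 0.0796 without CM1 4 and Ctrl 6. Ereg followed the differentiated list (r = 0.561, permutation p = 0.00397, adjusted p = 0.0255; rho = 0.597), more closely without CMC 2 and Ctrl 6 (r = 0.824, adjusted p = 0.00135). With group means removed that relation of Ereg had r = 0.401 and an adjusted p = 0.256, and it lost its call without CMA 3 or without Ctrl 6. The remaining called relations were Erbb2 with the hair follicle list (r = 0.620, rho = 0.530, permutation p = 0.00129), Erbb3 with the basal list (r = 0.548, rho = 0.285, p = 0.00539), Areg with the neutrophil list (r = 0.526, rho = 0.468, p = 0.00847) and Tgfa with the macrophage list (r = -0.596, rho = -0.486, p = 0.00209). These 4 had an adjusted p of 0.13, 0.709, 0.0796 and 0.265 without the farthest wounds. The number of single libraries whose loss ended the call was 0, 6, 16 and 2. With group means removed, the relations of Areg (r = 0.712, adjusted p = 0.0187) and Tgfa (r = -0.607, adjusted p = 0.0295) kept their calls. Those of Erbb2 (adjusted p = 0.12) and Erbb3 (adjusted p = 0.107) did not.

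**Figure D5:**
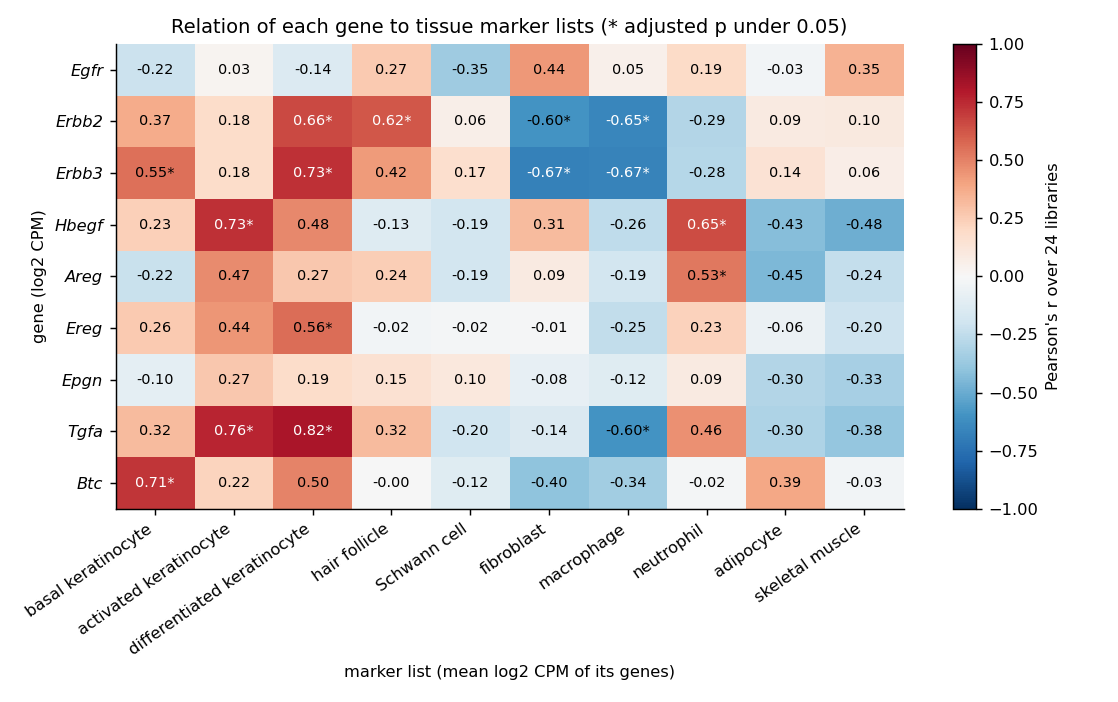
Pearson's r over 24 wounds between each of the 9 genes and the mean log2 CPM of each of 10 marker lists, as a colour map with each r printed and a star where the adjusted p is under 0.05. Tgfa has its highest values with the differentiated (0.817) and activated (0.763) keratinocyte lists, and Egfr stays between -0.355 and 0.437.

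The rest of the pathway was read from 5 lists of 57 genes, of which 55 were tested, and 0 of these passed the threshold in any comparison of the groups. Among other family members 4 of 6 were tested. Erbb4, the remaining receptor, was not, with 0 to 3 counts per library, and neither was the neuregulin gene Nrg3. Egf, the founding ligand, stood at 7.08 ± 1.38 CPM in Ctrl and between 5.41 and 6.71 CPM in mean under the media. Nrg1, a ligand of Erbb3, stood at 9.38 ± 2.85 CPM in Ctrl and 13.3 ± 4.15 under CMC, and Nrg2 at 4.08 ± 2.56 CPM in Ctrl and 2.51 ± 0.313 under CM0. In the control wounds Nrg2 was at 9.13 CPM in Ctrl 3, the wound richest in hair follicle transcripts, and at 2.30 to 4.19 CPM in the other 5, and the part of those transcripts was not tested.

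Of the 8 proteases and helper genes that free the ligands 0 passed, with median log2 fold changes from 0.02 under CM0 to 0.07 under CM1 and CMC. Adam17, a protease that frees several of these ligands, stood at 104.5 ± 10.3 CPM in Ctrl and had means from 108.0 to 111.1 under the media. Adam10, a related protease, ran in mean from 124.9 CPM in Ctrl to 139.7 under CMC, and Adam9 from 141.6 in Ctrl to 168.1 under CMC. Rhbdf2, which carries Adam17 to the cell surface, ran from 52.4 to 64.3 CPM in mean.

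Of the 9 inhibitors 0 passed, and 1 of 9, Errfi1 under CMC, had an unadjusted p under 0.05 against Ctrl, beside 8.55% of all genes there. Errfi1, an inhibitor that binds the kinase of Egfr and is induced by its signal, stood at 61.9 ± 33.2 CPM in Ctrl and 109.5 ± 47.9 under CMC, a log2 difference of 0.82 (SE 0.36, edgeR adjusted p = 0.576). The CMC wounds were split, with 163 and 161 CPM in CMC 1 and CMC 2. CMC 3, CMC 4 and CMC 5 had 73.9, 72.0 and 77.7 CPM, within the control range of 39.0 to 123 CPM. Lrig1, a membrane protein that draws the receptors into breakdown, ran in mean from 92.3 CPM under CMC to 112.6 under CM0.

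The 16 genes of ERK feedback and response, which include outputs of receptor signalling, had median log2 fold changes of -0.18 under CM0, -0.15 under CM1, -0.19 under CMA and -0.08 under CMC, beside -0.01 for all tested genes. None passed the threshold, and 5 of 16 had an unadjusted p under 0.05 for the mean of the media, beside 9.42% of all genes. The single media were uneven, with 2 of 16 under CM0 (beside 4.92% of all genes) and 4 under CM1 (beside 7.04%). Under CMA it was 1 of 16 (beside 6.61%) and under CMC 5 (beside 8.55%). Etv5, a transcription factor induced by ERK, ran from 20.3 to 28.1 CPM in the control wounds and from 13.7 to 24.1 CPM in the others. For the mean of the media its log2 difference was -0.36 (SE 0.10, edgeR adjusted p = 0.378). Etv4, its close relative, differed by -0.99 (SE 0.31, adjusted p = 0.412), but its control wounds held 22.8 CPM in Ctrl 3, the wound with the highest hair follicle sum, and 3.20 to 7.16 CPM in the other 5. The part of the hair follicle transcripts in that difference was not tested. Dusp6, a phosphatase that switches ERK off, stood at 41.7 ± 8.64 CPM in Ctrl and 33.0 ± 1.74 under CMC. Its log2 difference under CMC was -0.34 (SE 0.14, edgeR adjusted p = 0.559). Ctrl 3 was the highest control wound for Dusp6 too, at 57.79 CPM against 34.98 to 43.87 CPM in the other 5. It was also the highest for Etv5, at 28.1 CPM. The part of the hair follicle transcripts in the differences of Dusp6 and Etv5 was not tested.

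Of the 18 transducers 0 passed, with median log2 fold changes of 0.03 to 0.07 under the 4 media. Gab1, a docking protein of the receptors, stood at 76.8 ± 3.29 CPM in Ctrl and 85.4 ± 5.66 under CMA, and had an unadjusted p of 0.0100 in the test for any difference (edgeR adjusted p = 0.929). Pik3ca, the catalytic subunit of PI3 kinase, stood at 89.8 ± 4.68 CPM in Ctrl and 98.4 ± 0.970 under CMC.

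The genes whose levels ranked the wounds most like each member were sought among 18573 genes by Spearman's rho over the 24 wounds. For Erbb2 these were Celsr2 (0.950), Oplah (0.926) and Erbb3 (0.925), and for Erbb3 they were Erbb2, Celsr2 (0.907) and Maml3 (0.881). Tgfa was nearest to Gipc1 (0.915), 4930438A08Rik (0.914) and Dusp7 (0.911), Btc to Tmem229a (0.870) and Flg2 (0.838), and Hbegf to Eif4h (0.828), Crabp2 (0.820) and Ndel1 (0.809). The other genes had weaker nearest neighbours, at 0.804 for Areg (Siah1b), 0.797 for Ereg (Ipmk), 0.776 for Epgn (Plagl2) and 0.751 for Egfr (Dpp4). These are the highest of many values and carry no test.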

How the data were processed

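RNA from 24 wounds was measured by RNA sequencing, and all results rest on unnormalized read counts per gene, as deposited by the authors. Per the labels' protocols, total RNA was depleted of ribosomal RNA and made into libraries with a kit that does not mark strand. The submitters' processing notes name bcl2fastq 2.17, cutadapt, STAR, featureCounts and the build GRCm38. No source used here gives the annotation release. Symbols, coordinates and lengths came from GENCODE M21, which named 54079 of 54232 genes.

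Genes were kept with filterByExpr, which left 18978, scaled with TMM (factors 0.9475 to 1.061) and fitted in 1 quasi-likelihood model with 1 term per group (R 4.3.3, edgeR 4.0.16). Levels for relations were log2 CPM with a prior count of 2. DESeq2 1.42.0, limma 3.58.1, other scalings, filters, lengths and left-out libraries were alternatives. Of the models, the edgeR fit was tested on simulated counts, for CM0 against Ctrl alone. Each library is 1 mouse, numbered in accession order. All 9 members are named in every comparison, other pathway genes by the smallest 2 p-values per list or a fixed panel, and like genes by the highest 3 rho, of which 1 is not reported here. The members and gene lists were chosen with earlier results of these data known, and leave-one-out and rank relations were added after seeing the data.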

Additional observations from a re-analysis of the deposited data

Results flagged for a closer look

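For each gene and group the lowest and highest wound were checked for a gap to the others above Dixon's 95% critical value, 45 checks in all, and 5 wounds stood apart. Chance marks about 1 in 20 such groups. Egfr was 279 CPM in CM1 4 and 241 to 247 in the other CM1 wounds. Erbb3 was 44.8 CPM in Ctrl 6 and 110 to 119 in the other control wounds. Ereg was 16.2 CPM in Ctrl 1 and 5.48 to 8.66 in the other controls. Epgn was 1.64 CPM in Ctrl 2 and 3.38 to 4.24 in the others. Btc was 12.8 CPM in CMC 1 and 9.07 to 9.40 in the other CMC wounds. Each gap concerned 1 gene in 1 wound, and Ctrl 6, the wound low in Erbb3, was also the lowest of all wounds for Erbb2 and Btc and for the basal and differentiated keratinocyte scores.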

How the results depend on the processing

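The groups were compared without pairing, since each library is 1 mouse under 1 type of dressing, and the labels give no replicate numbers. None of the 9 genes was called under any alternative; the lowest adjusted p, 0.2934, was that of Erbb2 under CMC without Ctrl 6. Over all tested genes edgeR called 0 in each comparison (unadjusted counts are 422 for CM1 against CM0 to 1788 for the mean of the media), DESeq2 called 1 for CM0, CM1 and CMC against Ctrl and for any difference and 0 elsewhere, and limma called 0. Leaving out 1 library gave 0 to 1 calls for CM0 against Ctrl (1 without CM0 2) and 0 to 5 for the mean of the media (5 without Ctrl 2). The pairs of genes gave 4 calls with Spearman's rho and 4 to 8 without 1 library (4 without Ctrl 3, CM1 3 or CMC 5), and the marker relations 8 with rho and 6 without the 2 farthest libraries. With the longest transcript Hbegf moved to 8.74 TPM. The fit of only 2 groups cannot give the mean of the media or the test for any difference.

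Of the fold changes of the 9 genes under the other alternatives 341 kept their sign and 10 changed it, none of them called. These were Areg under CM0 (0.0217) and CMA (0.0214) and Ereg under CMC (-0.0787) with limma, and Egfr under CM1 (-0.0107) with library totals. Without Ctrl 3, Ctrl 4 and CM1 3 together they were Erbb2 (0.0566) and Erbb3 (0.0531) under CM0, Btc under CM1 (-0.131), Egfr under CMA (0.0439), Tgfa under CMC (0.128) and Erbb2 for the mean of the media (0.0646). Leaving out 1 library, the log2 differences that changed sign ran from -0.204 to 0.0228 for Erbb3 and -0.343 to 0.235 for Epgn under CM0. Under CM1 they ran from -0.0083 to 0.067 for Egfr, -0.347 to 0.0141 for Erbb3, -0.466 to 0.243 for Ereg and -0.0644 to 0.384 for Btc. Under CMA they ran from -0.0562 to 0.0435 for Egfr and -0.586 to 0.12 for Areg, under CMC from -0.0788 to 0.567 for Ereg and -0.339 to 0.114 for Tgfa, and for the mean of the media from -0.195 to 0.0114 for Erbb2. The cause was not tested. Areg and Epgn had the fewest reads, with 7 to 69 counts per library.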

Other observations

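The summed level of the 6 ligands per length, Hbegf, Areg, Ereg, Epgn, Tgfa and Btc, ran from 15.6 TPM in CMC 5 to 56.6 TPM in CMA 3. These sums are not scaled by TMM, and the order of the wounds depends on the scale used. The shares of the ligands within a wound do not. In CMA 3 Ereg held 29.4% of the sum. Of the control wounds Ctrl 1 had the highest sum on the TPM scale, 49.2 TPM, led by Areg with 22.6%. Ctrl 4 had the lowest on that scale, 19.97 TPM, led by Hbegf with 20.7%. The ligand with the largest share of any wound was Ereg in CMC 2, with 35% of 29.48 TPM, followed by Hbegf in CMC 3 with 34.3% of 29.53 TPM. Wounds of 1 group thus differed in which ligand led.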
